A study of Mus musculus with 16 samples.

Results

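A set of 10 interferon-induced mouse genes was followed, Mx1, Mx2, Rtp4, Ifi44, Xaf1, Cmpk2, Ly6e, Phf11b, Phf11d and Trim30a. The 10 genes were chosen by name, as antiviral and regulatory genes known to be switched on by type I interferon. Earlier results of these data were known when they were chosen. Each matched 1 of the 53700 gene lines of the deposited counts, and all 10 passed the filter on low counts that left 17090 genes for testing. They were measured by bulk RNA sequencing of microglia, the resident macrophages of the brain, sorted from whole mouse brain with a gate on live, CD11b-high, CD45-intermediate, Ly6c-negative cells.

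The 4 groups of 4 libraries were Ercc1 knockouts (KO) at 12 weeks, wild-type mice (WT) at 12 weeks, KO at 6 weeks and WT at 6 weeks. All were on a cross of C57Bl6J and FVB, and each 12-week group held 3 males and 1 female while each 6-week group held 2 of each sex. Ercc1 encodes a subunit of an endonuclease that repairs DNA, and mice that lack its function age early. The labels give the genotype only as ko or wt, and neither the allele nor any pooling of animals is given in the sources used here.

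Type I interferon binds its receptor and activates STAT factors, which join IRF9 and bind the interferon-stimulated response element, a DNA element in the promoters of interferon-induced genes. IRF7 is itself induced and, once activated, drives more interferon. Microglia both make and answer type I interferon, and a set of induced genes like those described here marks interferon-responsive microglia in infection, ageing and disease models.

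Total counts per library ran from 7882182 to 22142972. On these unscaled totals 3 counts, taken as the floor, were worth 0.1355 to 0.3806 CPM (counts scaled to the size of the library). CPM is the unit of all levels here, and the levels of genes are on scaled library sizes instead. Ercc1 RNA was at 0.425 to 6.77 CPM in 12-week KO libraries, against 7.46 to 49.2 CPM in 12-week WT libraries. It was at 2.82 to 4.54 CPM in 6-week KO libraries, against 13.5 to 30.6 CPM in 6-week WT libraries, so neither age showed an overlap. The 12-week WT library numbered 5_6, labelled male, held both Xist (339.5 CPM) and RNA of 4 Y-linked genes (109.4 CPM), and the results that change without it are given with both values. The 12-week libraries were less alike than the 6-week ones: the mean correlation of a library with the others of its group was 0.886 to 0.912 at 12 weeks and 0.929 to 0.945 at 6 weeks, and it was lowest in WT libraries 8 and 3.

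Microglial markers were high throughout. The summed level of 8 of them was 48900 to 51000 CPM in 12-week KO and 59500 to 66300 CPM in 12-week WT libraries, and 55500 to 64900 CPM in 6-week KO and 65800 to 72100 CPM in 6-week WT libraries, with none at 0. Among them P2ry12 fell in KO at both ages, with adjusted p of 2.08e-05 for the older and 0.0185 for the younger mice, and Cx3cr1 fell at 12 weeks (adjusted p = 0.00332, against 0.0930 at 6 weeks). Border-associated macrophage markers, 9 in all and none at 0 in a whole group, summed to 118 to 197 CPM in 12-week KO against 11.8 to 59.4 CPM in 12-week WT, and to 141 to 305 CPM in 6-week KO against 55.8 to 97.8 CPM in 6-week WT. Of these 9, Ms4a7 passed the test at 12 weeks. Monocyte markers summed to 17.4 to 32.9 CPM in 12-week KO and 1.08 to 10.7 CPM in 12-week WT libraries, and to 15.0 to 36.6 CPM in 6-week KO and 6.17 to 20.6 CPM in 6-week WT libraries, with 3 of the 7, Ly6c2 and Chil3 among them, at 0 in both KO groups. Plasmacytoid dendritic cell markers summed to 15.3 to 26.8 CPM in 12-week KO and 2.85 to 13.6 CPM in 12-week WT libraries, with 3 of 4 (Ccr9, Klk1 and Ly6d) at 0 in 12-week KO. All 8 T and NK cell markers were at 0 in 12-week KO libraries. The 7 neutrophil markers summed to 62.3 CPM in 6-week WT library 2 and 8.72 CPM in 12-week KO library 2. They were at 2.01 CPM or less in every other library. The 3 astrocyte markers summed to 6.91 to 32.6 CPM in 12-week KO and 0 to 6.62 CPM in 12-week WT libraries, and to 8.22 to 14.5 CPM in 6-week KO and 0.158 to 3.77 CPM in 6-week WT libraries, so that the groups did not overlap at either age, and none was called. The 4 endothelial markers summed to 24.3 to 35.4 CPM in 12-week KO and 8.76 to 54.7 CPM in 12-week WT libraries. They summed to 11.7 to 36.3 CPM in 6-week KO and 44.9 to 76.3 CPM in 6-week WT libraries, lower in KO without overlap. Among them Flt1 was called higher in KO at 12 weeks (adjusted p = 0.0435). Flt1 was at a mean of 6.85 CPM in 12-week KO and had no count in 12-week WT libraries. The part of these other cells in the results that follow was not tested.

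Promoters are shown first, because genes of this kind are known for the element that interferon factors bind there. RefSeq promoters on GRCm38.p6, 250 bases before to 50 after the start, were at hand for 6 of the 10 genes. The letters GAAA, any 2 bases and GAAA again, the core of the response element, were searched on both strands and stood in 2 of the 6, Phf11b and Trim30a, against 3.44% of 32851 promoters. The shorter core AANNGAAA, which every such core contains and which was added after the sequences had been seen, stood in 5 of the 6, all but Cmpk2, against 23.9% of promoters. TTCNNNGAA, the palindrome called the gamma-activated site, stood in none of the 6, against 8.3% of promoters. The windows of the 5 genes with a match are printed 5′ to 3′ along the gene, with each AANNGAAA, or its reverse complement, in capitals, and Cmpk2 is printed as the one without. The matches are letters in these windows and not measured binding.
Ifi44, chr3:151749861-151750160, minus strand: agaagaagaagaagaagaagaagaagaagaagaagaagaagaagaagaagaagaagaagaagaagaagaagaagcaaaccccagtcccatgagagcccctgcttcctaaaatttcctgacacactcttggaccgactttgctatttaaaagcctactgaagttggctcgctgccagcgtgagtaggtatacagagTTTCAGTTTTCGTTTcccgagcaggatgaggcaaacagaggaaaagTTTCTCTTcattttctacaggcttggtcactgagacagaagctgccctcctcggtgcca
Xaf1, chr11:72301379-72301678, plus strand: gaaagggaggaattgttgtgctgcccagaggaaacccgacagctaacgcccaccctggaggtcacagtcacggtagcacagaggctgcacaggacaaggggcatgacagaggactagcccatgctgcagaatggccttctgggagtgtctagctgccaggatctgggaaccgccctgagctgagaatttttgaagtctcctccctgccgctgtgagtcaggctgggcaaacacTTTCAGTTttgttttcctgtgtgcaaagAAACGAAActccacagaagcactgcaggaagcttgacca
Phf11b, chr14:59341281-59341580, minus strand: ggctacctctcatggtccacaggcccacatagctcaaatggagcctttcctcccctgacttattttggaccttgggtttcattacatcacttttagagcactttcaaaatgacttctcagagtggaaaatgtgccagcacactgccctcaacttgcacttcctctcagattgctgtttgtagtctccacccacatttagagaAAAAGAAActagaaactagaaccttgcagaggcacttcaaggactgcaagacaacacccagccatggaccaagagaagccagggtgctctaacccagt
Phf11d, chr14:59365441-59365740, minus strand: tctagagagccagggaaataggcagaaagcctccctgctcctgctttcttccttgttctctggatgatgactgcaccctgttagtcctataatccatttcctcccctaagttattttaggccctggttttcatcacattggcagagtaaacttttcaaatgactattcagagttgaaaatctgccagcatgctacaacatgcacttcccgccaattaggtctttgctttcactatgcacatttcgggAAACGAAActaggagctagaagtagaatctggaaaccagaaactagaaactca
Trim30a, chr7:104465144-104465443, minus strand: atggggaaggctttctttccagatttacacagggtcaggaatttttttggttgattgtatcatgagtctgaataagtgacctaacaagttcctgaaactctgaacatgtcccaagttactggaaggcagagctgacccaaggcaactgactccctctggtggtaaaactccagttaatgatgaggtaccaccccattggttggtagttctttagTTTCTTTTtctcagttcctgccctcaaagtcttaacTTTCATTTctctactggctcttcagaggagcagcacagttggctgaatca
Cmpk2, chr12:26468965-26469264, plus strand: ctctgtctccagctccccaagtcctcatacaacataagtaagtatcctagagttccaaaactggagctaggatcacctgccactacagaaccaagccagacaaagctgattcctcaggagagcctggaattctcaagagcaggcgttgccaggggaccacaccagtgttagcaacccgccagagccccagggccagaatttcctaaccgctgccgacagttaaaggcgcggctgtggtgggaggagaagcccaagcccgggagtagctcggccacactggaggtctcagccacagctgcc

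In Ifi44, 2 of the 3 matches adjoined, sharing 1 base, with their first bases 55 and 48 bases before the start. Phf11b and Phf11d, neighbours on chromosome 14, each had 1 match, beginning 48 and 3 bases before the start. Trim30a has 2 starts in RefSeq, and both windows held the longer core on the opposite strand.

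At 12 weeks, 6 of the 10 genes were higher in KO than in WT microglia and passed the test, against 2.03% of all genes tested that rose. They were Mx2, Rtp4, Ifi44, Xaf1, Ly6e and Phf11b. The median log2 fold change over the 10 was 2.36, against -0.03 over all genes tested, and all 10 were positive. At 6 weeks 2 of the 10, Rtp4 and Ly6e, rose, against 0.796% of all genes tested, with a median log2 fold change of 1.55 against -0.02 over all genes, and again all 10 were positive. KO and WT libraries did not overlap, with KO higher, for 6 genes at 12 weeks (Mx2, Rtp4, Xaf1, Cmpk2, Ly6e and Phf11b) against 5.13% of all genes, and for the same 6 and Ifi44, 7 in all, at 6 weeks against 4.92%. With the 12-week WT libraries 3 and 8 both left out, an alternative chosen after seeing the data, 5 of the 10 passed at 12 weeks: Mx2 and Ifi44 did not (adjusted p = 0.191 and 0.119) and Cmpk2 did (adjusted p = 0.0103). In bulk RNA, a change in the share of cells that carry a transcript and a change in its level per cell cannot be told apart. The test throughout was edgeR's quasi-likelihood test with Benjamini-Hochberg adjustment over all genes, and log2 fold changes are given with their approximate SE.

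**Figure D1:**
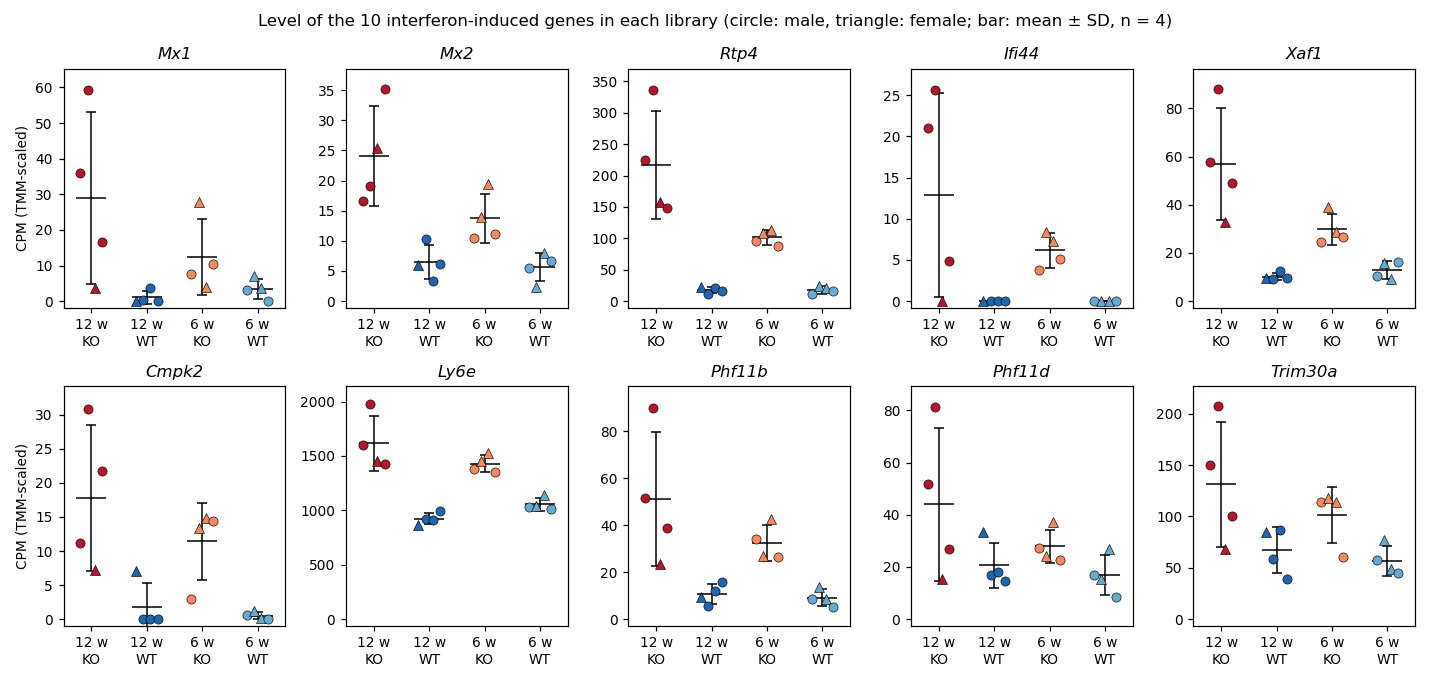
Level of each of the 10 genes (CPM, linear axis, 1 panel a gene) in every library, by group, with circles for males, triangles for females and bars for the mean ± SD of 4 libraries. Rtp4 stands at 148.3 CPM or more in every 12-week KO library and at 24.21 CPM or less in every WT library of either age.

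Rtp4 belongs to the receptor transporter protein family, whose members bring G protein-coupled receptors to the cell surface, and it is induced strongly by interferon. It had 224.5, 336.5, 158.2 and 148.3 CPM in 12-week KO libraries 1 to 4, against 21.95, 11.96, 21.10 and 15.62 CPM in 12-week WT libraries 3, 4, 5_6 and 8. It had 95.46, 109.1, 114.0 and 88.14 CPM in 6-week KO libraries 1 to 4, against 10.67, 24.21, 21.58 and 15.78 CPM in 6-week WT libraries 1 to 4. No KO library came near a WT library at either age, and the lowest 12-week KO library stood above the highest 6-week one. Rtp4 rose in KO by 3.65 ± 0.30 on the log2 scale at 12 weeks (adjusted p = 5.1e-06), and at 6 weeks it rose by 2.51 ± 0.29 (adjusted p = 0.000298). It passed at both ages under every alternative tried, and with any 1 library left out the log2 change stayed between 3.34 and 3.90 at 12 weeks and between 2.34 and 2.64 at 6 weeks. In the mouse annotation GENCODE M21, Rtp4 shares 296 exon bases with the gene Gm45338, so part of its reads could be assigned to either.

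Mx1 and Mx2 encode dynamin-like GTPases that block virus replication, mouse Mx1 in the nucleus and mouse Mx2 in the cytoplasm. Common inbred strains carry defective alleles of both, and only their RNA was measured here. Mx1 had 35.97, 59.20, 3.693 and 16.67 CPM in 12-week KO libraries 1 to 4, against 0, 0.2849, 3.816 and 0 CPM in 12-week WT libraries 3, 4, 5_6 and 8. The KO and WT ranges met only at KO library 3 and WT library 5_6, and the difference of 4.66 ± 1.37 on the log2 scale did not pass (adjusted p = 0.0886). Without WT library 5_6 it was 8.12 and passed (adjusted p = 0.0157). Mx1 had 7.695, 27.94, 3.839 and 10.41 CPM in 6-week KO libraries 1 to 4, against 3.018, 6.965, 3.795 and 0 CPM in 6-week WT libraries 1 to 4. These groups overlapped, with a log2 difference of 1.85 ± 1.23 (adjusted p = 0.906).

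Mx2 had 16.57, 19.02, 25.36 and 35.10 CPM in 12-week KO libraries 1 to 4, against 6.056, 10.26, 3.377 and 6.226 CPM in 12-week WT libraries 3, 4, 5_6 and 8. It had 10.42, 13.91, 19.41 and 11.10 CPM in 6-week KO libraries 1 to 4, against 5.498, 2.398, 7.906 and 6.675 CPM in 6-week WT libraries 1 to 4. All KO libraries stood above all WT libraries of their age. Mx2 rose in KO at 12 weeks by 1.89 ± 0.44 on the log2 scale (adjusted p = 0.0268), and its log2 difference at 6 weeks was 1.27 ± 0.43 (adjusted p = 0.359). The 12-week call was lost without WT library 3, 5_6 or 8 (adjusted p = 0.0759, 0.0715 and 0.0559) or without KO library 3 or 4 (adjusted p = 0.0542 and 0.0875), with log2 changes of 1.63 to 2.25 over all 8 omissions. Mx1 and Mx2 share 4.37% and 4.38% of their distinct 50-base stretches with other genes, mainly with each other, and the handling of such reads is not given in the sources used here.

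Ifi44, an interferon-induced gene with antiviral activity, had no count in any of the 8 WT libraries. It had 21.01, 25.61, 0 and 4.889 CPM in 12-week KO libraries 1 to 4, and 3.799, 8.393, 7.358 and 5.117 CPM in 6-week KO libraries 1 to 4. KO library 3 at 12 weeks, also without a count, had a floor of 0.3806 CPM on its unscaled total. Against a floor of 3 counts over the WT group, Ifi44 was at least 223-fold higher in KO at 12 weeks (adjusted p = 0.0347) and at least 80.0-fold higher at 6 weeks, where it did not pass (adjusted p = 0.113). The 12-week bound was 126-fold without WT library 5_6, the deepest, and 150 to 298-fold with any 1 KO library left out. The 12-week call was lost without any 1 of the WT libraries (adjusted p = 0.0569, 0.0655, 0.0762 and 0.0601 without libraries 3, 4, 5_6 and 8) and without KO library 1 or 2 (adjusted p = 0.069 and 0.0811).

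Xaf1 encodes a factor that binds the apoptosis inhibitor XIAP and promotes cell death. It had 57.69, 88.00, 32.75 and 49.01 CPM in 12-week KO libraries 1 to 4, against 9.409, 9.306, 12.41 and 9.708 CPM in 12-week WT libraries 3, 4, 5_6 and 8. It had 24.35, 39.26, 28.69 and 26.73 CPM in 6-week KO libraries 1 to 4, against 10.56, 15.98, 9.25 and 16.14 CPM in 6-week WT libraries 1 to 4. The groups did not overlap at either age, and the WT libraries lay within a narrow band. Xaf1 rose in KO at 12 weeks by 2.46 ± 0.31 on the log2 scale (adjusted p = 0.000255), and it passed with any 1 library left out. At 6 weeks its log2 difference of 1.21 ± 0.30 did not pass (adjusted p = 0.0933).

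Cmpk2 encodes a mitochondrial nucleotide kinase, and its neighbour in the genome is Rsad2, the gene of the antiviral enzyme viperin. It had 11.11, 30.93, 7.263 and 21.81 CPM in 12-week KO libraries 1 to 4, against 7.029, 0, 0 and 0 CPM in 12-week WT libraries 3, 4, 5_6 and 8. It had 2.922, 13.45, 14.82 and 14.43 CPM in 6-week KO libraries 1 to 4, against 0.539, 1.142, 0.1581 and 0 CPM in 6-week WT libraries 1 to 4. WT library 3 at 12 weeks alone came close to the KO range. The log2 differences of 5.03 ± 1.58 at 12 weeks and 4.90 ± 1.47 at 6 weeks did not pass (adjusted p = 0.114 and 0.221). Without that WT library the 12-week difference was 10.67 and passed (adjusted p = 0.00257), against a WT group with no count left, so that its size depends on the prior.

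Ly6e encodes a lipid-anchored surface protein that hinders the entry of coronaviruses and was by far the most abundant of the 10 in RNA. It had 1603, 1982, 1454 and 1427 CPM in 12-week KO libraries 1 to 4, against 867.6, 921.7, 914.4 and 992.9 CPM in 12-week WT libraries 3, 4, 5_6 and 8. It had 1378, 1454, 1525 and 1354 CPM in 6-week KO libraries 1 to 4, against 1026, 1042, 1143 and 1008 CPM in 6-week WT libraries 1 to 4. Its KO and WT libraries were apart at both ages by a step that was small beside those of the other genes. Ly6e rose in KO by 0.81 ± 0.10 on the log2 scale at 12 weeks (adjusted p = 0.000157), and at 6 weeks by 0.44 ± 0.10 (adjusted p = 0.0431). The 12-week call held with any 1 library left out, while the 6-week call was lost in each of the 8 omissions (log2 change 0.40 to 0.48, adjusted p = 0.0763 to 0.194).

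Phf11b and Phf11d encode PHD finger proteins, relatives of human PHF11, a regulator of transcription in immune cells. Phf11b had 51.73, 90.13, 23.27 and 38.99 CPM in 12-week KO libraries 1 to 4, against 9.409, 5.413, 11.75 and 15.83 CPM in 12-week WT libraries 3, 4, 5_6 and 8. It had 33.90, 26.96, 42.44 and 26.33 CPM in 6-week KO libraries 1 to 4, against 8.731, 13.82, 8.381 and 5.097 CPM in 6-week WT libraries 1 to 4. Neither age showed an overlap. Phf11b rose in KO at 12 weeks by 2.26 ± 0.43 on the log2 scale (adjusted p = 0.00806), also with any 1 library left out, and its log2 difference of 1.84 ± 0.43 at 6 weeks did not pass (adjusted p = 0.0645).

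Phf11d had 51.93, 81.31, 15.51 and 26.95 CPM in 12-week KO libraries 1 to 4, against 33.20, 16.71, 18.07 and 14.46 CPM in 12-week WT libraries 3, 4, 5_6 and 8. It had 27.27, 24.20, 37.11 and 22.77 CPM in 6-week KO libraries 1 to 4, against 16.71, 15.30, 26.80 and 8.617 CPM in 6-week WT libraries 1 to 4. The groups overlapped at both ages. Its log2 differences of 1.18 ± 0.46 at 12 weeks and 0.74 ± 0.45 at 6 weeks did not pass (adjusted p = 0.232 and 0.86). Without 12-week KO library 3 the 12-week difference was 1.63 and passed (adjusted p = 0.0309). Phf11b shares 47% of its distinct 50-base stretches with other genes, chiefly Phf11a and Phf11c, and Phf11d shares 8.09%, so the split of reads within this family is uncertain.

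Trim30a encodes a tripartite motif protein that in mice dampens NF-kB signalling from Toll-like receptors. It had 150.5, 207.5, 68.08 and 100.3 CPM in 12-week KO libraries 1 to 4, against 84.68, 58.30, 86.53 and 39.36 CPM in 12-week WT libraries 3, 4, 5_6 and 8. It had 114.4, 118.0, 113.7 and 60.71 CPM in 6-week KO libraries 1 to 4, against 57.13, 76.73, 48.39 and 44.54 CPM in 6-week WT libraries 1 to 4. KO library 3 at 12 weeks and KO library 4 at 6 weeks fell within the WT range. The log2 differences of 0.99 ± 0.34 at 12 weeks and 0.84 ± 0.34 at 6 weeks did not pass (adjusted p = 0.159 and 0.518). Without 12-week KO library 3 the 12-week difference was 1.32 and passed (adjusted p = 0.0312). Trim30a shares 5.98% of its distinct 50-base stretches with other genes, chiefly its neighbour Trim30d.

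**Figure D2:**
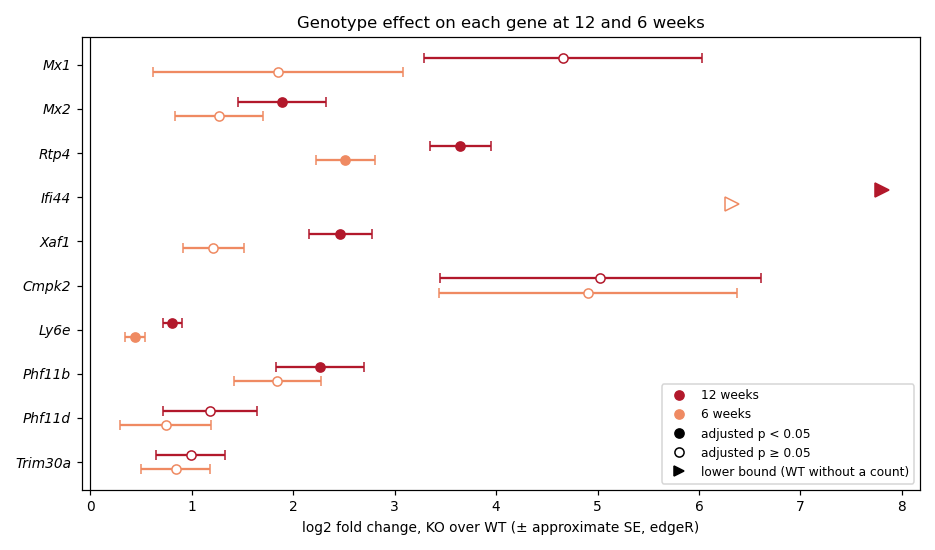
Log2 fold change, KO over WT, of each gene at 12 weeks (dark) and 6 weeks (light), with bars for the approximate SE, filled symbols for an adjusted p under 0.05 and triangles for the lower bounds of Ifi44, whose WT libraries had no count. All values lie above 0, and Ly6e, at 0.81 and 0.44, has the smallest change and the shortest bars.

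Per kilobase of exon, which allows levels of different genes to be set side by side, Ly6e averaged 427.3 CPM per kb in 12-week KO, 244.2 in 12-week WT, 377.1 in 6-week KO and 278.8 in 6-week WT libraries. Rtp4 came next in 12-week KO libraries at 101.8 CPM per kb, against 8.287 in 12-week WT, and 47.72 in 6-week KO against 8.475 in 6-week WT. Phf11b followed at 43.1 CPM per kb in 12-week KO libraries against 8.953 in 12-week WT, and Trim30a at 32.01 against 16.35. In 12-week WT libraries the order differed, since Trim30a stood above Phf11b and Rtp4 on this scale. The other 6 genes lay between 2.101 (Ifi44) and 12.13 (Xaf1) CPM per kb in 12-week KO libraries and between 0 (Ifi44) and 4.582 (Phf11d) in 12-week WT libraries. Lengths came from GENCODE M21 on GRCm38, not from the build of the counts, and neighbours in this order were not tested against each other.

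Between ages, the 10 genes had higher fitted levels at 12 than at 6 weeks in KO microglia, and none of these differences passed the test, against 0.00585% of all genes tested that rose. The median log2 change was 0.82, against -0.02 over all genes. By edgeR, 2 of the 10 had an unadjusted p under 0.05, Rtp4 (log2 1.20 ± 0.28, adjusted p = 0.159) and Xaf1 (0.88 ± 0.31, adjusted p = 0.392). DESeq2 called 1, Rtp4. Rtp4 was also the only one whose 12-week and 6-week KO libraries did not overlap, against 3.05% of all genes that were higher in this way. The log2 changes of the other 8 ran from 0.18 for Ly6e to 1.44 for Cmpk2, and that of Ifi44 turned negative without 6-week KO library 1 or 4 (-0.97 and -0.66).

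In WT microglia, 12 against 6 weeks, none of the 10 passed by edgeR, none had an unadjusted p under 0.05 and DESeq2 called none, against 0.0117% of all genes called in either direction. Ifi44 had no count in any WT library, so its change could not be estimated. Over the other 9 genes the median log2 change was 0.22, against -0.02 over all genes, with 6 positive and 3 negative values. Ly6e was the one gene whose age groups did not overlap, at 867.6 to 992.9 CPM in 12-week WT and 1008 to 1143 CPM in 6-week WT libraries, against 3% of all genes that were lower in this way, with a log2 change of -0.19 ± 0.10 (adjusted p = 0.711).

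Whether the genotype effect differed between ages was tested as an interaction, the 12-week effect minus the 6-week effect. None of the 10 genes passed by edgeR, against 0.00585% of all genes tested, and DESeq2 called none. The difference was positive for the 9 genes in which it could be estimated; it could not be estimated for Ifi44, with no count in either WT group. The sign turned for Cmpk2, Phf11d and Trim30a under some alternatives (to -2.27, -0.18 and -0.36 with the replicate block). By edgeR 3 genes had an unadjusted p under 0.05. They were Rtp4 at 1.13 ± 0.39 (adjusted p = 1), Xaf1 at 1.25 ± 0.42 (adjusted p = 0.984) and Ly6e at 0.37 ± 0.14 (adjusted p = 1). Without the filter on low counts, edgeR called the interaction for Mx1 (2.83, adjusted p = 0.048) and Rtp4 (1.16, adjusted p = 0.0403). That fit called 132 of 29343 genes. In the main fit, the larger number of calls at 12 weeks is therefore not shown to be a larger effect for any 1 gene. The age comparisons and the interaction share libraries with the genotype comparisons.

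The mean standardised level over the 10 genes, taken as the mean of each gene's log2(CPM + 1) in SD units over the 16 libraries, placed the 8 KO libraries at ranks 1 to 8 and the 8 WT libraries at ranks 9 to 16. It was 1.24, 1.80, 0.22 and 0.89 in 12-week KO libraries 1 to 4, and 0.36, 0.71, 0.72 and 0.32 in 6-week KO libraries 1 to 4. KO library 3 at 12 weeks, the only female of its group, thus lay below all 6-week KO libraries. WT libraries ran from -1.06 to -0.57.

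The spread within 12-week KO was ordered alike for most genes. KO library 2 was the highest of its group for 9 of the 10, all but Mx2, and KO library 3 was the lowest for 7 (Mx1, Ifi44, Xaf1, Cmpk2, Phf11b, Phf11d and Trim30a). The border-associated macrophage markers did not follow this order, at 118, 172, 191 and 197 CPM in KO libraries 1 to 4. The monocyte markers had the same highest and lowest libraries as most of the 10 genes, at 25.1, 32.9, 17.4 and 20.3 CPM. The plasmacytoid dendritic cell markers were also highest in library 2, at 18.0, 26.8, 17.7 and 15.3 CPM. With 3 of the 4 at 0 in this group, these values come from a single marker gene. In 6-week KO libraries 1 to 4 the border-associated macrophage markers were at 166, 305, 171 and 141 CPM. The monocyte markers there were at 15.0, 36.6, 20.7 and 15.8 CPM, and the plasmacytoid dendritic cell markers at 7.79, 6.15, 5.65 and 11.7 CPM. The part of such cells in the order at either age was not tested. At 6 weeks the highest KO library was library 3 for 6 genes and library 2 for 4, the 2 females of that group, and the lowest was library 4 for 5, library 1 for 4 and library 3 for Mx1. At 12 weeks the only KO female was low and at 6 weeks both were high. Sex and library cannot be told apart in 12-week KO, and a difference between sexes in these genes was not tested.

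**Figure D3:**
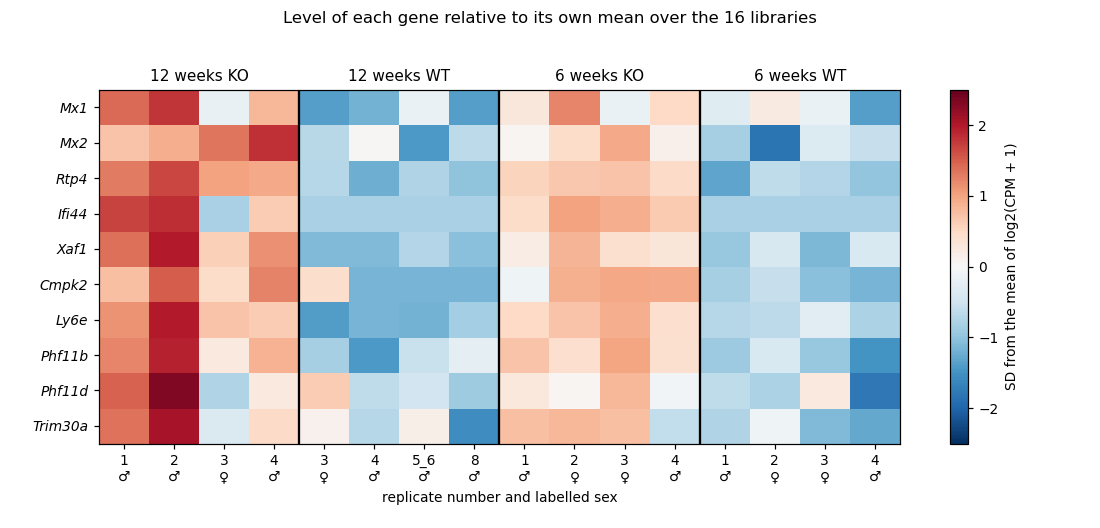
Level of each gene (rows) in each library (columns, with replicate number and labelled sex), in SD units from the gene's own mean of log2(CPM + 1) over the 16 libraries, red above and blue below the mean. KO library 2 at 12 weeks is the darkest red column, and KO library 3 at 12 weeks is pale or blue for Mx1, Ifi44, Phf11d and Trim30a but red for Mx2.

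Mx2 stood apart from the other members in this. Over all 16 libraries, which share the genotype difference, the 45 pairs of genes had Pearson correlations of log2(CPM + 1) between 0.46 and 0.95, with a median of 0.81. After the mean of each group was taken away, the 36 pairs without Mx2 had correlations of 0.11 to 0.74 with a median of 0.58, and the 9 pairs with Mx2 ran from -0.55 to -0.01 with a median of -0.40. In the 12-week KO libraries Mx2 was highest in library 4 and lowest in library 1. The contrast was smaller without them. Over the 12 other libraries, the pairs with Mx2 ran from -0.57 to 0.40 with a median of -0.37, 6 of 9 negative, and the 36 others from -0.53 to 0.50 with a median of 0.24, 5 of them negative. These correlations are a description, since all genes of a library share its depth and preparation.

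**Figure D4:**
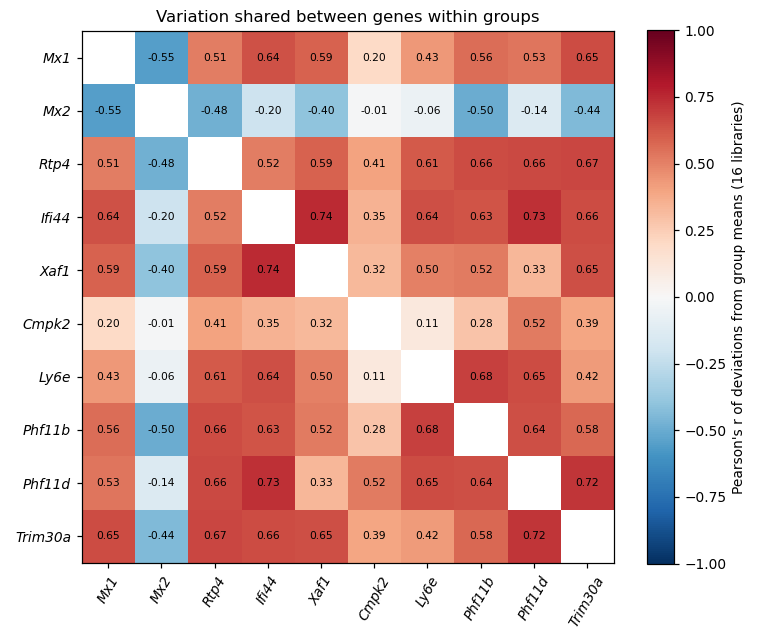
Pearson's r between the 10 genes over 16 libraries after each group's mean of log2(CPM + 1) was taken away, red positive and blue negative. The row and column of Mx2 are negative throughout (-0.55 to -0.01) and the rest positive (0.11 to 0.74), a contrast that was smaller over the 12 libraries outside 12-week KO.

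Interferon genes themselves were nearly absent. None of the 10 ligand genes listed passed the filter on low counts. Ifnb1, the type I interferon gene that many cells switch on first, had 27 counts in 12-week KO library 2, the library with the highest level of 9 of the 10 genes, and no count in the other 3 of that group or in any WT library. At 6 weeks it had 11 and 18 counts in KO libraries 1 and 2 and none in KO libraries 3 and 4. In that group, library 1 was the highest for none of the 10 genes, library 2 for 4 and library 3 for 6. Of the other ligands, Ifng had 11 counts in 12-week KO library 1, Ifnk 7 in 6-week KO library 2 and Ifna4 3 in 12-week WT library 4. A link between ligand counts and the level of the 10 genes was not tested. A count of 0 allows up to 0.0576 CPM over the 12-week WT group and up to 0.0771 CPM over the 6-week WT group.

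Of 12 receptor and signalling genes, 3 rose in KO at 12 weeks (Irf7, Stat2 and Irf9) and 1 at 6 weeks (Irf7) by edgeR, and none fell. Over all genes tested, 2.03% rose at 12 weeks and 0.796% at 6 weeks. DESeq2 called 5 of the 12 higher at 12 weeks (Ifngr2 and Irf1 as well), 1 lower (Ifngr1, a subunit of the type II receptor, with an edgeR log2 change of -0.41 and adjusted p = 0.0593), and 2 higher at 6 weeks (Irf7 and Irf9). The median log2 change of the 12 was 0.45 at 12 weeks and 0.15 at 6 weeks, against -0.03 and -0.02 over all genes. Irf7, the factor that amplifies the response, averaged 99.2 ± 60.8 CPM in 12-week KO and 2.43 ± 1.82 CPM in 12-week WT libraries, and the log2 change was 5.37 ± 0.64 (adjusted p = 0.000152). At 6 weeks it averaged 48.1 ± 10.8 CPM in KO and 7.12 ± 2.94 CPM in WT libraries (SD, n = 4 each), and the log2 change was 2.77 ± 0.56 (adjusted p = 0.0266). Its levels in 12-week KO libraries 1 to 4, at 117.1, 177.0, 42.35 and 60.42 CPM, had the same highest and lowest libraries as most of the 10 genes.

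Stat2, which carries the signal to the nucleus, rose at 12 weeks by 1.60 ± 0.32 (adjusted p = 0.0102, and 0.106 without WT libraries 3 and 8), with a log2 difference of 0.59 ± 0.31 at 6 weeks (adjusted p = 0.773). Irf9, the DNA-binding subunit of the same complex, rose at 12 weeks by 0.92 ± 0.16 (adjusted p = 0.00396, and 0.0548 in a fit of the 2 groups alone), with a log2 difference of 0.58 ± 0.16 at 6 weeks (adjusted p = 0.152). At 6 weeks Irf7 passed in 1 of 8 omissions of a library, that of KO library 1 (adjusted p = 0.037 to 0.11 over the 8).

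Among 6 inhibitors, Usp18, which removes ISG15 and blocks the receptor, was the only one called at either age, with DESeq2 calling 1 at each age as well. It rose in KO at 12 weeks by 3.31 ± 0.47 (adjusted p = 0.000765) and at 6 weeks by 2.92 ± 0.47 (adjusted p = 0.00472). The median of the 6 was 0.39 at 12 weeks and -0.01 at 6 weeks, against -0.03 and -0.02 over all genes. Of all genes tested, 2.03% rose at 12 weeks and 0.796% at 6 weeks by edgeR.

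Of 45 other interferon-induced genes, 26 rose in KO at 12 weeks (median log2 1.95) and 11 at 6 weeks (median 1.21), with none lower at either age. Over all genes tested, 2.03% and 0.796% rose, with medians of -0.03 and -0.02. The calls among the 45 at 6 weeks numbered 18 by DESeq2, 23 without the filter on low counts, 7 without WT library 1, 3 or 4 and 7 to 11 over all omissions. Rsad2, the neighbour of Cmpk2, had no count in 12-week WT and averaged 34.0 ± 29.0 CPM in 12-week KO libraries, at least 589-fold higher (adjusted p = 0.00145). Oas2 and Oas1g, which make the activator of RNase L, likewise had no count in 12-week WT libraries and were at least 635-fold (adjusted p = 0.0104) and at least 165-fold higher in KO (adjusted p = 0.0079). Without WT libraries 3 and 8 the calls of Oas2 and Oas1g were lost (adjusted p = 0.0629 and 0.057). Without WT library 5_6 these bounds were 331, 357 and 92.6-fold. At 6 weeks the largest calls were Zbp1, a sensor of Z-form nucleic acid (6.66 ± 1.25, adjusted p = 0.0171), Ifi27l2a (4.57 ± 0.63, adjusted p = 0.00143) and Ifitm3, which hinders virus entry (3.73 ± 0.49, adjusted p = 0.000902). Zbp1 had 5 counts in all in 6-week WT libraries, and its 6-week call was lost without WT library 1, 3 or 4 or KO library 3 (adjusted p = 0.0725, 0.0721, 0.0747 and 0.0528).

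Relatives and partners of the 10 genes were counted in the same way. Of 22 listed, 16 could be tested. Their median log2 change was 0.46 at 12 weeks and 0.13 at 6 weeks, against -0.03 and -0.02 over all genes. By edgeR 1 of the 16 rose at 12 weeks, against 2.03% of all genes tested. It was Ly6a, a surface protein of the same family as Ly6e, at 19.3 ± 7.27 CPM in KO and 1.25 ± 1.02 CPM in WT libraries (log2 3.95 ± 0.82, adjusted p = 0.0137). Without KO library 2 its log2 change was 3.69 and did not pass (adjusted p = 0.0517), nor did it in a fit of the 2 groups alone (adjusted p = 0.0745). DESeq2 called 3 at 12 weeks (Ly6a, Phf11a and Trim25). None passed at 6 weeks by edgeR, against 0.796% of all genes tested that rose. Of the 16, 1 had an unadjusted p under 0.05 by edgeR (Phf11a), and DESeq2 called 1. Phf11a, beside Phf11b in the genome, averaged 11.4 ± 11.1 CPM in 12-week KO and 1.42 ± 1.69 CPM in 12-week WT libraries (adjusted p = 0.234). Trim30d, beside Trim30a, averaged 46.2 ± 9.62 CPM in 12-week KO and 25.4 ± 10.1 CPM in 12-week WT libraries (adjusted p = 0.194). Ifi44l, beside Ifi44, had no count in any library.

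The genes whose pattern was most like the mean standardised level of the 10, over 16 libraries, were Cd69 (Pearson's r = 0.972), Tor3a (0.972), H2-K1 (0.971), B2m (0.966) and H2-D1 (0.965). After group means were taken away the correlations were 0.867, 0.81, 0.85, 0.821 and 0.843 in that order. H2-K1, H2-D1 and B2m encode the chains of MHC class I, which presents peptides to CD8+ T cells. B2m averaged 4152 ± 987 CPM in 12-week KO and 1533 ± 94.7 CPM in 12-week WT libraries, and 2790.0 ± 200.2 CPM in 6-week KO and 1415 ± 17.6 CPM in 6-week WT libraries. H2-K1 averaged 980.3 ± 298.3 CPM in 12-week KO and 190.6 ± 30.6 CPM in 12-week WT libraries, and reads of such class I genes can fall to near-identical copies. Cd69, an early activation marker of leukocytes, had no count in WT libraries of either age and averaged 20.1 ± 25.4 CPM in 12-week KO and 6.95 ± 4.02 CPM in 6-week KO libraries.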

How the data were processed

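The deposited files hold raw counts, 1 for each of 53700 gene lines in each of 16 libraries. For the authors' steps, the submitters' processing notes list HTSeq 0.11.0, Picard 2.13.2, SAMtools 1.10, TopHat, cutadapt 2.10, FastQC 0.11.9 and the build GRCm39. Which annotation release was used, and how strand and multi-mapping reads were treated, is not given in the sources used here. Per the labels' protocols, a low-input kit was used and sequencing was on a NovaSeq6000.

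Groups were taken from the sample titles. From the counts as deposited, filterByExpr with a minimum count of 10 by group left 17090 genes. Tests used R 4.3.3 with edgeR 4.0.16 (quasi-likelihood, robust, TMM, limma 3.58.1) in 1 model over 16 libraries, with terms for the 4 groups and for sex. P-values are two-sided, with Benjamini-Hochberg adjustment over all genes in each of 5 comparisons and a threshold of 0.05. The approximate SE is the size of the log2 change over the root of its F statistic, and it is unreliable for genes with few counts. The common dispersion was 0.421. CPM are on TMM-scaled library sizes, with mean ± SD over 4 libraries. A group with no count was set to 3 counts over the group, and such floors cover counting error only. The labels do not say that replicates are separate animals, so the p-values measure the spread between these samples.

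The 10 genes and all lists were chosen with earlier results of these data known. All 10 are named, as are Irf7 and Irf9, up to 3 called genes of each other list with the largest change at each age, and the 5 genes most like the 10 in pattern (mean of at least 5 CPM, log2 with a pseudocount of 1, no predicted genes). Phf11a, Trim30d, Ifi44l, Ifnb1, Ifng, Ifnk, Ifna4, Cx3cr1, P2ry12, Ms4a7, Flt1, Ifngr1, Ifngr2, Irf1 and Trim25 were named after their values were seen. Some genes under these rules are not reported here. Scripts were tested on simulated data. Alternatives were DESeq2 1.42.0, RLE size factors, library totals, no filter, no sex term, a replicate block, only the groups compared, and leaving out libraries. The replicate block had a term for each replicate number in place of the sex term. Library totals, and the omission of 12-week WT libraries 3 and 8 together, were chosen after seeing the data. A deposited table of the whole series was not used.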

Additional observations from a re-analysis of the deposited data

Results flagged for a closer look

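In a group of 4 libraries, a value counted as standing apart where its gap to the nearest of the others exceeded Dixon's critical share of the group's range. Among the 10 genes this held in 5 of 38 groups, and among the other genes screened in 3 of 45 groups. The others screened were Irf7, Irf9, Stat2, Usp18, Ly6a, Zbp1, Ifi27l2a, Ifitm3, Rsad2, Oas2, Oas1g and Tor3a. The remaining named genes were not screened, and groups without a count were left out. Chance gives about 1 in 20 for normally distributed values only. A group with a count in a single library stands apart by construction, so that rate does not apply to it. Such were Cmpk2 in 12-week WT, Zbp1 in both WT groups and Oas1g in 6-week WT. None of the flagged values was explained by a test.

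In 12-week WT library 5_6, which held both Xist and Y-linked RNA, Mx1 stood apart at 3.816 CPM, Xaf1 at 12.41 CPM and Zbp1 at 0.4824 CPM, each above the other 3 libraries of the group. Cmpk2 stood apart at 7.029 CPM in 12-week WT library 3, the others being at 0. In 6-week KO, Cmpk2 in library 1 (2.922 CPM) and Trim30a in library 4 (60.71 CPM) stood below the rest. In 6-week WT library 2, Zbp1 at 0.5709 CPM and Oas1g at 0.685 CPM were the only values above 0 in their group.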

How the results depend on the processing

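Of the 10 genes, 6 were called at 12 weeks, 9 by DESeq2, 10 without the filter on low counts, 3 (Rtp4, Xaf1 and Ly6e) in a fit of the 2 groups compared and 4 to 7 with 1 library left out. At 6 weeks 2 were called, 6 by DESeq2, 7 without the filter, 5 in a fit of the 2 groups compared and 1 (Rtp4) in each omission of a library. For 12 against 6 weeks in KO, DESeq2 and the fit without the filter called 1 (Rtp4) where edgeR called 0, and for the interaction the fit without the filter called 2 (Mx1 and Rtp4). Same-numbered KO and WT libraries correlated in their deviations from group means at 0.015 to 0.07 at 6 weeks and at -0.02 and 0 at 12 weeks. Differently numbered ones correlated at -0.06 to 0.031 at 6 weeks and at -0.031 to 0.035 at 12 weeks. Same-numbered 6-week libraries also shared their sex, and at 12 weeks only numbers 3 and 4 occurred in both genotypes. These values therefore cannot show whether replicate numbers pair the libraries. The replicate block gave each replicate number a term, shared by both ages, in place of the sex term. Numbers 5_6 and 8 occurred in 1 library each, so with the block the 12-week WT level rested on libraries 3 and 4. Calls lost with the block therefore cannot be read as an effect of pairing. The block left 4 calls at 12 weeks (Rtp4, Xaf1, Ly6e and Phf11b) and 2 at 6 weeks (Rtp4 and Phf11b). With the block, 13 of the 45 other interferon-induced genes were called at 12 weeks, against 26 without it. The 12-week adjusted p with the block was 0.0776 for Stat2, 0.196 for Irf9 (log2 0.59), 0.0694 for Rsad2, 0.107 for Oas2, 0.12 for Oas1g and 0.0557 for Ly6a.

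Over all genes, 510 were called at 12 weeks, against 1158 by DESeq2, 1073 without the filter, 204 in a fit of the 2 groups, 181 with the replicate block, 307 without WT libraries 3 and 8, and 328 without KO library 2. At 6 weeks 149 were called, against 366 by DESeq2, 353 without the filter and 82 to 100 with 1 library left out. Between ages in KO 4 genes were called, against 270 by DESeq2, 204 without the filter, 16 without the sex term, 1 with the block and 0 in a fit of the 2 groups. In WT 2 were called, against 152 by DESeq2, 194 without the filter, and 0 with the block or the 2 groups. For the interaction 1 was called, against 55 by DESeq2, 132 without the filter, and 2 with the block or with library totals. The causes were not tested.

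Changes of sign arose in age and interaction values that were never called. Without the sex term, the Rtp4 age change in WT was -0.031 and the Cmpk2 interaction -1.25. With the block, the interactions of Cmpk2, Phf11d and Trim30a were -2.27, -0.18 and -0.36. Without WT libraries 3 and 8, the WT age changes of Cmpk2 and Phf11b were -5.27 and -0.058. With 1 library left out, the WT age change ran from -0.15 to 0.17 for Rtp4, -0.11 to 0.42 for Mx2, -0.065 to 0.47 for Phf11b, -5.24 to 2.02 for Cmpk2 and -0.035 to 0.58 for Phf11d. The KO age change of Ifi44 ran from -0.97 to 1.92. The interaction ran from -0.57 to 6.04 for Cmpk2, -0.15 to 0.48 for Trim30a and -0.038 to 0.85 for Phf11d. Several WT libraries had no count of Mx1, Ifi44 and Cmpk2, so the size of their changes is uncertain.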
